A study of Mus musculus with 8 samples.

Results

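A group of 37 genes of smooth muscle contraction was examined in colonic biopsies of bone marrow chimeric mice. The members were listed by name as genes of the contractile machinery of visceral smooth muscle, and a listed gene was kept if its normalized counts averaged 10 or more over all libraries. All 37 listed genes met this minimum, out of 26008 genes in the deposited table and 19127 that met it. Irradiated wild-type C57BL/6JRj males aged 7 weeks had been grafted with bone marrow of Penk-/- donors (n = 4) or of their Penk+/+ littermates (n = 4), the donors being 9 to 11 weeks old, and the colon was taken 18 to 21 weeks after the graft. Each mouse gave 1 poly-A, stranded, paired-end RNA-seq library. Only cells derived from the graft lacked Penk, the gene of the enkephalin precursor. The smooth muscle of both groups came from wild-type recipients that had all been irradiated and grafted. The comparison therefore asked whether muscle transcripts differed between colons with Penk-deficient and Penk-competent hematopoietic cells, and not what a deletion in muscle does.

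Smooth muscle of the colon lies in a thin muscularis mucosae under the epithelium and in the thick circular and longitudinal layers of the muscularis externa. Contraction starts when acetylcholine acts on muscarinic receptors and calcium enters through L-type channels. Calcium-calmodulin then activates myosin light chain kinase, which phosphorylates the regulatory light chain of myosin so that it can pull on actin filaments anchored in dense bodies and dense plaques. Myosin phosphatase reverses this step, and nitric oxide relaxes the muscle through cyclic GMP. Most of the genes concerned are switched on by serum response factor, which binds the CArG box, and by its partner myocardin.

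The depth was between 33.1 M and 50.7 M gene reads (median 38.5 M), and all 28 pairs of the 8 libraries differed by more than counting noise (chi-square per degree of freedom of at least 10.9). Penk itself had 453, 512, 616 and 531 normalized counts in Penk-/- replicates 1 to 4 and 473, 496, 560 and 636 in Penk+/+ replicates 1 to 4. The groups overlapped (log2 fold change -0.03, limma, adjusted p = 0.957). Since the recipients were wild type, Penk in the whole colon is no check of the labels. Markers of colonic epithelium were abundant in every library, with 918849 to 1436640 summed normalized counts over 20 genes. Pbsn, a gene of the prostate, differed widely between libraries, with 105658 normalized counts in Penk-/- replicate 3 and 111024 in Penk+/+ replicate 4, against 0 to 13425 in the others. The muscle share and the genotype fits were repeated without the 2 libraries highest in Pbsn. The correlations, slopes and cell type scores below rest on all 8 libraries, and the ratios were repeated only without 1 library at a time. What tissue other than colon adds to the muscle transcripts of these libraries was not tested. In bulk tissue, fewer muscle cells in a biopsy and less RNA per muscle cell cannot be told apart.

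Per kilobase of exon, the contractile filaments led the list. Actg2, the enteric gamma-actin, had a mean of 13348 normalized counts per kilobase over the 8 libraries, and Acta2, the smooth muscle alpha-actin, 12347. Myh11, the smooth muscle myosin heavy chain, followed with 10381 per kilobase, and then came the light chains Myl6 with 9848 and Myl9 with 8101. Actg2 lay on chromosome 6 (chr6:83489887-83513551, minus strand, GRCm39), Acta2 on chromosome 19 (chr19:34217737-34232990, minus strand) and Myh11 on chromosome 16 (chr16:14012399-14109236, minus strand). At the other end stood genes of signalling and transcription. Myocd, which codes for myocardin, had 39.5 normalized counts per kilobase and Chrm3, the muscarinic receptor that triggers contraction, 20.8. Across the libraries the values of Actg2, Acta2 and Myh11 per kilobase overlapped, as the plot of levels per length shows. Within a library, Actg2 was above Acta2 in 7 of 8 libraries, and both actins were above Myh11 in all 8, though in Penk+/+ replicate 2 by little (11219 for Actg2 and 11199 for Myh11 per kilobase).

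**Figure D1:**
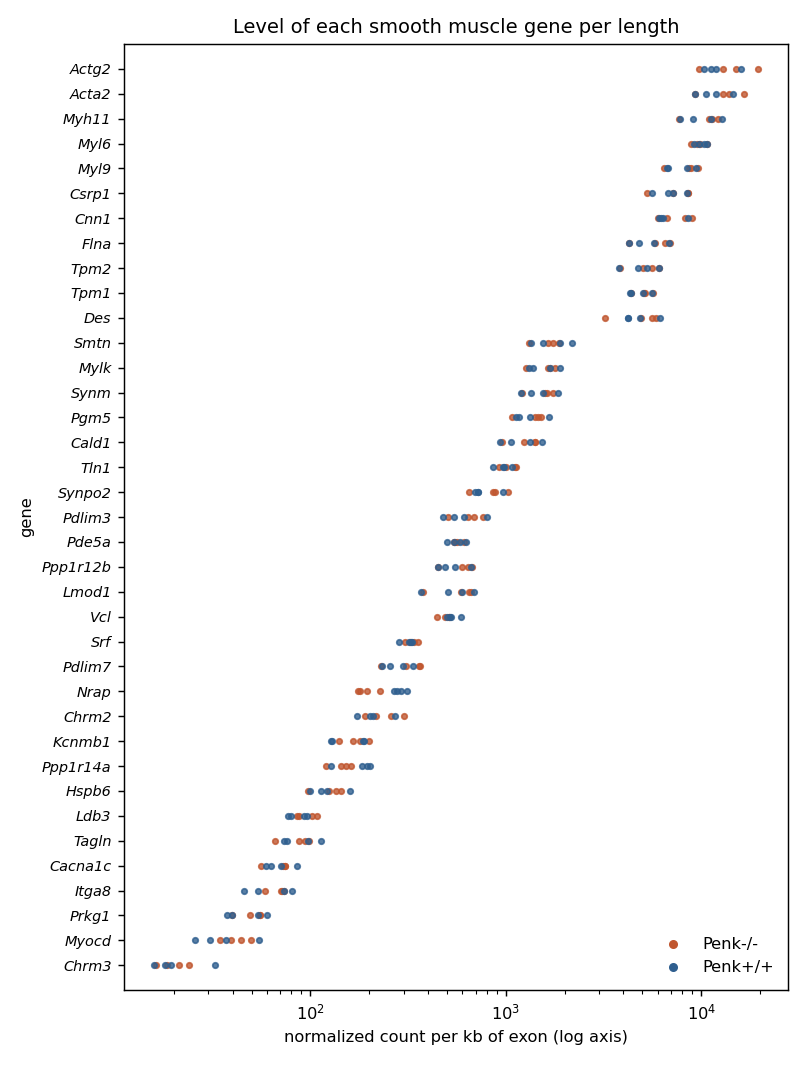
Normalized count per kilobase of exon of each of the 37 genes, on a log axis, with 1 point per library (orange, Penk-/-, n = 4; blue, Penk+/+, n = 4). Actg2, Acta2 and Myh11 lie at the top near 10381 to 13348 per kilobase, Chrm3 lies at the bottom, and the colours are mixed in nearly every row.

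Tagln, the gene of transgelin (SM22), usually counted among the most abundant smooth muscle transcripts, stood apart from the other filament genes by its level. Its normalized counts were 134, 201, 191 and 178 in Penk-/- replicates 1 to 4 and 198, 155, 231 and 149 in Penk+/+ replicates 1 to 4, or 87.9 per kilobase of exon. The level of Acta2 per kilobase was 140-fold higher. On GRCm39, Tagln (chr9:45840909-45847404, minus strand) shares 66.7% of its 2044 exonic bases with exons of Pcsk7 and Gm48529 on the opposite strand. Per kilobase of exon outside these shared bases, the value would be 264. Which strand setting the authors used for counting is not stated in the sources used here, and the part of the overlap in the level of Tagln was not tested. With Tagln included, 20 of the 37 members had at least 1 exonic base under an antisense exon, and 15 had over 5%, led by Tagln and by Cnn1 with 35.1%.

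Upstream of the members, CArG boxes were looked for as the sites that serum response factor binds. The RefSeq promoter table (GRCm38.p6, from 250 bases before to 50 bases after each start) held a window for 33 of the 37 members. It held none for Actg2, Myh11, Myocd and Tagln. A CArG box (a pair of C, then 6 bases that are each A or T, then a pair of G, which reads as a match on both strands at once) was found for 5 of the 33, or 15.2%, and for 488 of the 27025 genes of the table, or 1.81%. The windows below show these sites, with the boxes in capitals and positions counted from the RefSeq start. The bases before the start of Nrap, the member that departed most from the others, are given as well. No match was found for Nrap, as for most of the 33 members. A match is a run of letters and not a known binding site. Of the 5 members with a box, Myl9 followed the mean of the others closely (Pearson r = 0.98, described below). Ldb3 (r = 0.68), Srf (0.61), Vcl (0.21) and Myl6 (0.16) followed it less or hardly at all. The part of the boxes in the spread between biopsies was not tested.
Myl9 (chr2:156775273-156775342, plus strand, box from position -161): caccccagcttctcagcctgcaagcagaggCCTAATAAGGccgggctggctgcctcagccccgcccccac
Myl6 (chr10:128493020-128493089, minus strand, box from position -50): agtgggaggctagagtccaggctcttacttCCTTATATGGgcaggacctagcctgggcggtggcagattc
Vcl (chr14:20929148-20929210, plus strand, box from position -227): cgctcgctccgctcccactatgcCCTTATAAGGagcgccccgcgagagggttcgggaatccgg
Ldb3 (chr14:34588682-34588746, minus strand, box from position -35): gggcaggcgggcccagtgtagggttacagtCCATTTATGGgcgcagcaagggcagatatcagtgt
Srf (chr17:46556185-46556274, minus strand, boxes from positions -82 and -62): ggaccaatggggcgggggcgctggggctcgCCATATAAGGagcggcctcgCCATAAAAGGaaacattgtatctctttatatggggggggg
Nrap (chr19:56390039-56390138, minus strand, no box): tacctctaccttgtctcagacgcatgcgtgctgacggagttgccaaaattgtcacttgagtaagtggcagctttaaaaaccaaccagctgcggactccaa

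The 37 genes together took 0.998%, 1.60%, 1.504% and 1.35% of all normalized counts in Penk-/- replicates 1 to 4, and 0.988%, 1.33%, 1.58% and 1.08% in Penk+/+ replicates 1 to 4. Both genotypes thus held biopsies poor and rich in muscle transcripts, and the lowest library of each was numbered 1, a number that the labels do not tie to a shared mouse, day or batch. The highest share, in Penk-/- replicate 2, was 1.62-fold that of the lowest, in Penk+/+ replicate 1. The Penk-/- libraries averaged 1.36% ± 0.265 and the Penk+/+ libraries 1.24% ± 0.264 (SD, n = 4 each), and the ranges overlapped almost entirely. When 8 members that other cells also express strongly (Flna, Vcl, Tln1, Myl6, Srf, Tpm1, Csrp1 and Pdlim7) were left out, the highest share was 1.70-fold the lowest, and it was 1.68-fold with counts taken per kilobase. Without the 2 libraries highest in Pbsn it stayed at 1.62-fold.

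**Figure D2:**
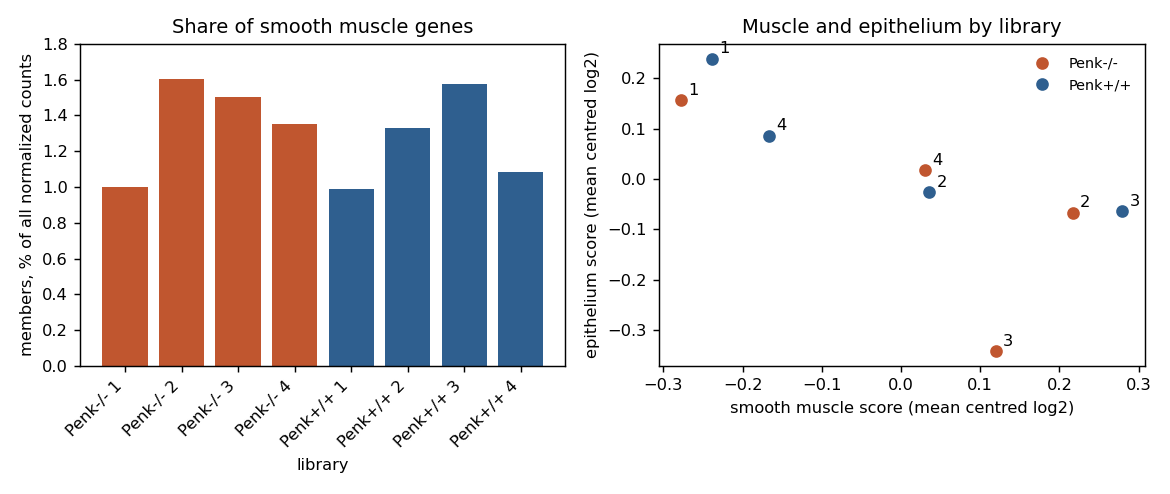
Left, share of all normalized counts taken by the 37 smooth muscle genes in each library (bars, %, from 0). Right, mean centred log2 level of the 37 genes against that of 20 epithelial genes, 1 point per library with its replicate number (orange, Penk-/-; blue, Penk+/+). Shares run from 0.988% to 1.60% in both colours, and libraries with more muscle transcripts had lower epithelial levels.

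Most of the members shared this spread between biopsies. For each gene the values were centred as log2(normalized count + 1) minus the mean of the gene, and the mean of the members gave a smooth muscle score, which was -0.28, 0.22, 0.12 and 0.03 in Penk-/- replicates 1 to 4 and -0.24, 0.04, 0.28 and -0.17 in Penk+/+ replicates 1 to 4. Of the 37 members, 31 had their lowest value in a library numbered 1 (17 in Penk-/- and 14 in Penk+/+), and 33 had their highest in Penk-/- replicate 2 (15 genes) or Penk+/+ replicate 3 (18 genes). Each gene was set against the mean of the other 36, over the 8 libraries, as a description with no test. The median Pearson r was 0.94 (median Spearman rho 0.90), and r exceeded 0.9 for 21 of the 37 members (56.8%), whereas 1.57% of all genes tested had an r above 0.9 with the score of the members. The members with the lowest r were Nrap (-0.28), Myl6 (0.16), Vcl (0.21) and Ppp1r14a (0.35). These points share their libraries, so that any difference in tissue composition enters all of them. The spread of a member was larger than that of an average gene, with a median SD of 0.26 on the log2 scale over the 8 libraries against 0.21 for all genes tested.

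Scores of other cell types were set beside the muscle score. The epithelial score ran the opposite way, with 0.16, -0.07, -0.34 and 0.02 in Penk-/- replicates 1 to 4 and 0.24, -0.03, -0.06 and 0.09 in Penk+/+ replicates 1 to 4, and its r with the muscle score was -0.74. The scores of pericytes and vascular smooth muscle (r = 0.92), endothelium (r = 0.82), fibroblasts (r = 0.79) and enteric glia (r = 0.68) ran the same way. Those of immune cells (r = 0.50), interstitial cells of Cajal (r = 0.43) and enteric neurons (r = 0.39) did so more loosely. Their genes were mixed. Of the genes of interstitial cells of Cajal, Ano1 (r = -0.65) and Thbs4 (-0.23) ran the opposite way. Kit (0.61), Etv1 (0.57) and Hcn4 (0.27) ran the same way. Among single genes, r ran from -0.87 (Jchain) to 0.85 (Adgre1) for immune cells and from -0.38 (Elavl3) to 0.67 (Vip) for enteric neurons. The part of tissue composition in the spread of the muscle genes was not tested.

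**Figure D3:**
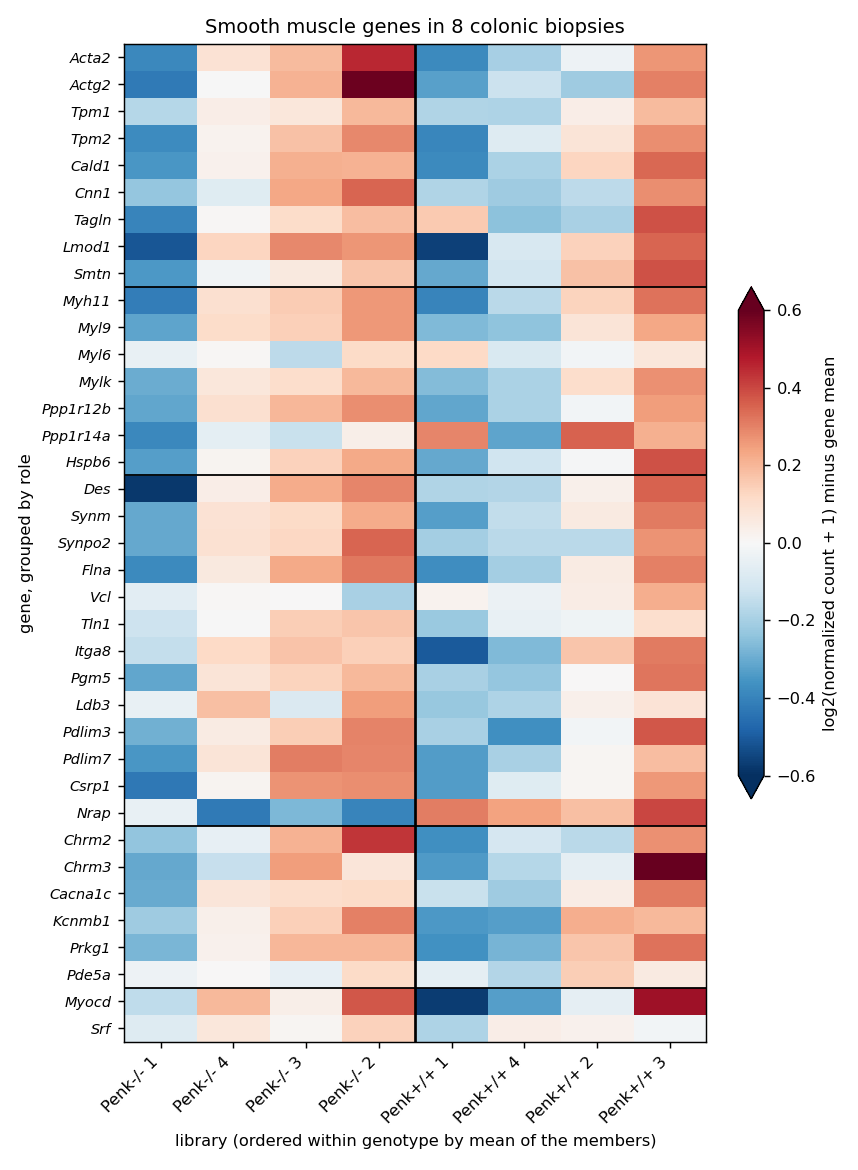
Centred log2(normalized count + 1) of the 37 genes (rows, grouped by role and separated by lines) in the 8 libraries (columns, ordered within each genotype by the mean of the members). Blue is below and red above the mean of the gene. In both genotypes nearly all rows go from blue on the left to red on the right. Nrap is blue or nearly white to the left of the vertical line and red to its right. It is the row whose genotypes do not overlap, as for 5.63% of all genes tested.

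Between the genotypes, no member passed limma's test at an adjusted p of 0.05, and none of the 19127 genes tested did (0% called; 0% also at an absolute log2 fold change over 1 with an adjusted p under 0.01). The paper, which used DESeq2 and not limma, did report a small number of genes past this last rule. At an unadjusted p under 0.05, limma returned 1 of the 37 members, Nrap, against a background of 9.63% of all genes tested (1842 genes). The median log2 fold change of the members was 0.07, and that of all genes tested 0.01. On the log2 scale 28 members (75.7%) had a higher mean in Penk-/- and 9 a lower one, whereas 51.1% of all genes tested were higher. Since the members followed each other between biopsies, this count rests on few independent values. It was 13 of 37 when the epithelial score entered the fit as a covariate, 17 with the score of other smooth muscle genes, 16 without the 2 libraries highest in Pbsn, and 18 without Penk+/+ replicate 1. It was 29 with quantile normalization, and 33 without Penk-/- replicate 1 or without Penk+/+ replicate 3.

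The intervals around these differences were narrow for most members. The 95% interval of the fold change lay within 1.5-fold in either direction for 32 of the 37 genes. Over all members, the lowest lower limit was 0.585, for Nrap, and the highest upper limit 1.64, for Myocd. The intervals of all members other than Nrap included no change.

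**Figure D4:**
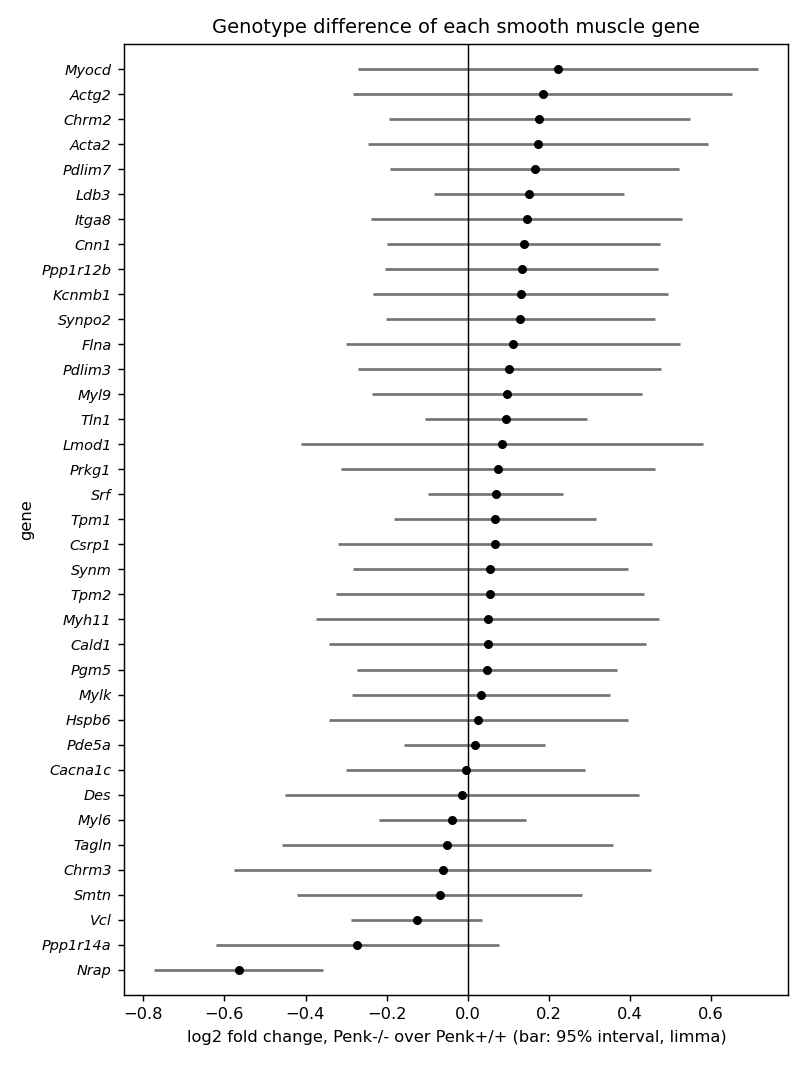
Log2 fold change of each of the 37 genes, Penk-/- over Penk+/+, with its 95% interval from limma (4 libraries per genotype), ordered by size. Intervals of 36 genes include 0, and that of Nrap, at -0.56, does not.

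Of the 9 genes of the thin filament and its regulators, 7 were higher and 2 lower in Penk-/-, with log2 fold changes from -0.07 (Smtn) to 0.19 (Actg2) and none past the test. Acta2 had 29918, 53534, 44572 and 41504 normalized counts in Penk-/- replicates 1 to 4 and 29966, 38252, 46973 and 34037 in Penk+/+ replicates 1 to 4. The groups covered nearly the same range, and their means of 42382 ± 9752 and 37307 ± 7278 (SD, n = 4 each) differed by less than the spread between mice (log2 fold change 0.17, SE 0.19, limma, adjusted p = 0.815). Actg2 varied 2.02-fold between its lowest library, Penk-/- replicate 1, and its highest, Penk-/- replicate 2. Within each biopsy the actins kept a narrow proportion, with 0.65 to 0.81 Actg2 counts per Acta2 count. Tpm1, one of the tropomyosins that lie along the filament, varied little, from 35060 to 45512 normalized counts, and followed the other members with an r of 0.98. Lmod1, leiomodin, which nucleates actin filaments, had the steepest line of the group, 1.64 log2 units per unit of the mean of the other members. The values of Cnn1 (calponin), Cald1 (caldesmon) and Tpm2 ran with the others, with r from 0.89 to 0.98, and their log2 fold changes were 0.14, 0.05 and 0.06.

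Of the 7 genes of the myosin motor and its phosphorylation, 5 were higher and 2 lower, with a median log2 fold change of 0.03. Myh11 had 58199, 92966, 86314 and 83035 normalized counts in Penk-/- replicates 1 to 4 and 58885, 85101, 97282 and 69298 in Penk+/+ replicates 1 to 4. The libraries numbered 1 were the lowest of each genotype, and the groups overlapped (means 80129 ± 15192 and 77642 ± 16959, SD, n = 4 each; log2 fold change 0.05, SE 0.19, limma, adjusted p = 0.959). Mylk, the light chain kinase, and Ppp1r12b, a targeting subunit of myosin phosphatase, followed the mean of the other members with r of 0.99 and 0.98. Myl9, the regulatory light chain, and Hspb6, a small heat shock protein linked to relaxation, did so with r of 0.98 each, and their log2 fold changes were 0.10 and 0.03. Myl6, the essential light chain, which non-muscle myosins use as well, did not follow them: it kept between 28673 and 34627 normalized counts in all 8 libraries, a 1.21-fold range, with an r of 0.16. Ppp1r14a codes for CPI-17, the inhibitor of myosin phosphatase that makes muscle more sensitive to calcium. Its normalized counts were 384, 515, 458 and 483 in Penk-/- replicates 1 to 4 and 616, 642, 584 and 403 in Penk+/+ replicates 1 to 4. Only Penk+/+ replicate 4 fell among the Penk-/- values, and the difference was not called (log2 fold change -0.27, SE 0.16, limma, adjusted p = 0.630). Without that library the genotypes no longer overlapped for Ppp1r14a, nor for 11.2% of all genes tested. The gene lay on chromosome 7 (chr7:28988700-28999576, plus strand, GRCm39).

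Of the 13 genes of intermediate filaments, dense bodies and adhesion, 10 were higher and 3 lower in Penk-/-. Des, desmin, the intermediate filament protein of muscle, ranged 1.91-fold between biopsies, with a log2 fold change of -0.01 between genotypes. Synm (synemin), Flna (filamin A, which crosslinks actin) and Pgm5 (aciculin, a protein of adhesion plaques) followed the other members with r of 0.99, 0.99 and 0.98. Synpo2 (synaptopodin 2), Pdlim3 and Pdlim7 (adaptors of the actin cytoskeleton) and Csrp1 (a protein with LIM domains that binds actin-associated partners) had r from 0.92 to 0.95. Their log2 fold changes were 0.13, 0.10, 0.17 and 0.07. Tln1 (talin, which activates integrins) and Itga8 (the alpha 8 integrin) had r of 0.89 and 0.86, and log2 fold changes of 0.09 and 0.15. Ldb3, a Z-line adaptor of striated muscle, followed the others less closely (r = 0.68, log2 fold change 0.15). Vcl, vinculin, which links actin to adhesions in many cell types, did not follow them: its normalized counts were 4166, 3809, 4357 and 4379 in Penk-/- replicates 1 to 4 and 4427, 4496, 5061 and 4256 in Penk+/+ replicates 1 to 4, with an r of 0.21. The Penk+/+ values lay above the Penk-/- values apart from replicate 4, and the difference was not called (log2 fold change -0.13, SE 0.07, limma, adjusted p = 0.630).

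Nrap was the member that set the genotypes apart. It codes for nebulin-related anchoring protein, known mainly from striated muscle, where it links actin to the membrane at cell ends. Its normalized counts were 1299, 1018, 1112 and 998 in Penk-/- replicates 1 to 4 and 1655, 1519, 1766 and 1584 in Penk+/+ replicates 1 to 4. All 4 Penk-/- values lay below all 4 Penk+/+ values, with means of 1107 ± 137 and 1631 ± 106 (SD, n = 4 each). The fold change was 0.676 with a 95% interval of 0.585 to 0.781 (log2 fold change -0.56, SE 0.09, limma, unadjusted p = 0.00015, adjusted p = 0.323 over the 19127 genes), so that the difference did not pass the correction. Of all genes tested, 5.63% had genotypes that did not overlap, and 2.74% had them apart in the direction of Nrap. For 1 member of 37 to be such a gene is no more than this background.

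Nrap also went its own way between biopsies. Its r with the mean of the other members was -0.28, and Penk-/- replicate 1, the library poorest in muscle transcripts of its genotype, held the most Nrap of its genotype. With the score of other smooth muscle genes as a covariate, the log2 fold change of Nrap was -0.55 (limma, adjusted p = 0.205), and with the epithelial score it was -0.54 (limma, adjusted p = 0.200). The same fits returned 11.7% and 11.4% of all genes at an unadjusted p under 0.05. With the smooth muscle covariate these included 3 members, Nrap, Ppp1r14a (log2 fold change -0.33, limma, adjusted p = 0.394) and Smtn (-0.16, limma, adjusted p = 0.305), all of them lower in Penk-/-. Nrap lay on chromosome 19 (chr19:56308454-56378631, minus strand, GRCm39), and 10.2% of its exonic bases lay under exons of Habp2 and Gm17197 on the opposite strand, whose means were only 25.7 and 30.9 normalized counts.

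**Figure D5:**
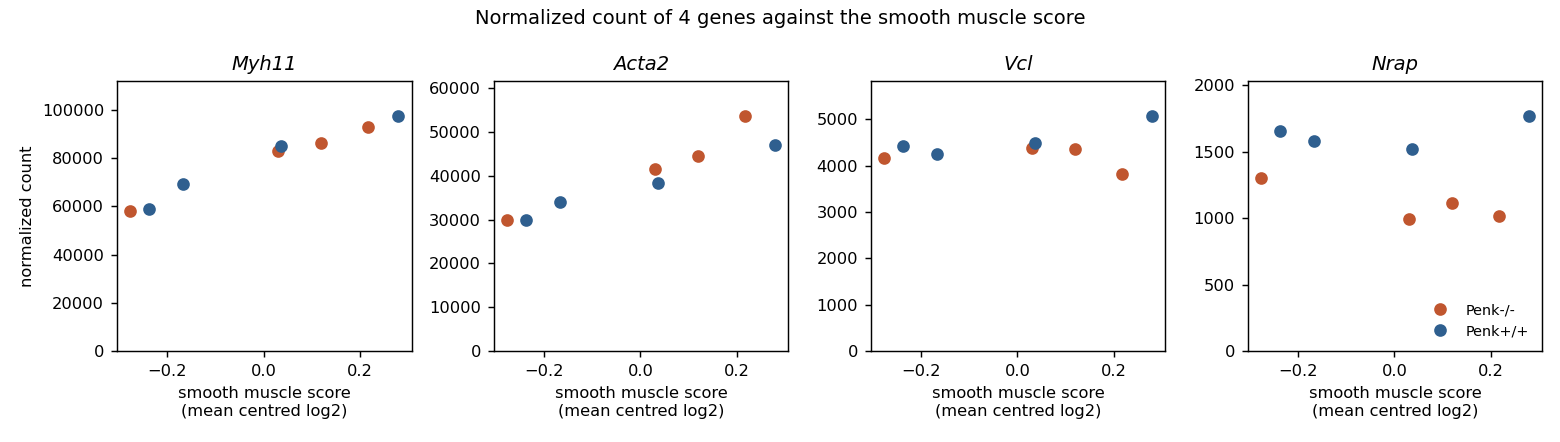
Normalized counts of Myh11, Acta2, Vcl and Nrap against the smooth muscle score of each library (mean centred log2 of the 37 genes), with 1 point per library (orange, Penk-/-; blue, Penk+/+) and vertical axes from 0. Myh11 and Acta2 follow the score in both colours, Vcl stays between 3809 and 5061, and the orange points of Nrap, 998 to 1299, lie under the blue ones, 1519 to 1766.

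Because Nrap is best known from striated muscle, markers of skeletal and cardiac muscle were set beside it. The 12 listed skeletal muscle genes found in the table (of 15) summed to 473 to 849 normalized counts in Penk-/- and 584 to 733 in Penk+/+. Of these genes, Mb, Myh1 and Myh4 were at 0 in at least 1 library each. The rest were above 0 in every library, led by Ckm with 157 to 281 normalized counts. The score of the skeletal list had an r of 0.68 with the muscle score. The 6 cardiac genes found (of 8) summed to 1040 to 1506 in Penk-/- and 1024 to 1399 in Penk+/+, most of it Tnnt2. The ranges of both lists overlapped between genotypes, whereas those of Nrap did not. Myh2, a myosin of fast skeletal fibres, had 80.8 to 179 normalized counts in Penk-/- and 59.7 to 106 in Penk+/+ (log2 fold change 0.66, limma, adjusted p = 0.501). Acta1, the skeletal alpha-actin, had 74.7, 91.6, 251 and 137 normalized counts in Penk-/- replicates 1 to 4 and 178, 163, 144 and 240 in Penk+/+ replicates 1 to 4 (log2 fold change -0.52, limma, adjusted p = 0.670). Of the 9 skeletal muscle genes tested, 4 were higher and 5 lower in Penk-/-, and none passed limma's adjusted threshold.

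Of the 6 genes of receptors, channels and cyclic GMP, 4 were higher and 2 lower in Penk-/-, and none passed the test. Chrm2, the more abundant muscarinic receptor, had 1329, 2113, 1814 and 1517 normalized counts in Penk-/- replicates 1 to 4 and 1215, 1402, 1899 and 1465 in Penk+/+ replicates 1 to 4, whereas Chrm3 had 102, 133, 150 and 115, and 100, 122, 204 and 112. Both receptors overlapped between the genotypes (log2 fold changes 0.18 and -0.06, limma, adjusted p = 0.778 and 0.959). Cacna1c, the pore of the L-type calcium channel, and Kcnmb1, the beta subunit that makes potassium channels of smooth muscle sensitive to calcium, ran with the other members (r = 0.95 and 0.90). Their log2 fold changes were -0.01 and 0.13. Prkg1, the kinase activated by cyclic GMP, followed them as well (r = 0.96), whereas Pde5a, the phosphodiesterase that degrades cyclic GMP, varied only 1.25-fold (r = 0.59).

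The regulators differed in the same manner. Myocd, myocardin, had 246, 355, 281 and 314 normalized counts in Penk-/- replicates 1 to 4 and 184, 264, 390 and 218 in Penk+/+ replicates 1 to 4, the widest range of all members at 2.12-fold. Its groups overlapped (log2 fold change 0.22, SE 0.22, limma, adjusted p = 0.789). Srf, which is made in most cell types, kept between 1248 and 1564 normalized counts, a 1.25-fold range, and its line on the mean of the other members had a slope of 0.28 against 1.54 for Myocd.

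Ratios of 2 members within a biopsy remove the part of the muscle share that acts equally on both. Where the slopes on the other members differed, as for Des (1.41) and Vcl (0.12), the ratio still ran with the muscle content, from 3.96 in Penk-/- replicate 1 to 7.92 in Penk-/- replicate 2. Of 7 ratios compared between the genotypes by an exact two-sided permutation test over all 70 assignments of the libraries, whose smallest possible p is 0.0286, none passed. The log2 ratio of Mylk to Ppp1r12b, kinase to phosphatase subunit, was 1.02 ± 0.05 in Penk-/- and 1.12 ± 0.05 in Penk+/+ (SD, n = 4 each; difference -0.10, exact permutation p = 0.0571, adjusted over the 7 ratios p = 0.4). That of Chrm2 to Chrm3 differed by 0.24 (exact permutation p = 0.143, adjusted p = 0.5). The differences of the 5 other log2 ratios were 0.01 for Actg2 to Acta2, -0.14 for Myh11 to Actg2, 0.06 for Prkg1 to Pde5a, 0.09 for Cnn1 to Cald1 and 0.11 for Des to Vcl, all within the spread between mice.

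Genes of the same pathways that are no members gave a like picture. Of 44 other genes of smooth muscle, 43 were tested, 31 with a higher and 12 with a lower mean in Penk-/-, and none passed limma's adjusted threshold. Of all genes tested, 51.1% were higher, and 9.63% had an unadjusted p under 0.05 in limma. The score of these other genes had an r of 0.98 with that of the members, so that their count is not independent of the members. Filip1l, which codes for a filamin-interacting protein, was the one with an unadjusted p under 0.05 (log2 fold change 0.34, limma, adjusted p = 0.452), and Dstn, destrin, an actin-depolymerizing protein, had the smallest p of those lower (log2 fold change -0.17, limma, adjusted p = 0.578). The score of the other smooth muscle genes was -0.21, 0.16, 0.10 and 0.08 in Penk-/- replicates 1 to 4 and -0.21, 0.07, 0.21 and -0.20 in Penk+/+ replicates 1 to 4, so that the genes outside the list ordered the biopsies nearly as the members did.

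Of 21 genes tested on the path from receptors through RhoA to myosin phosphatase, 13 were higher and 8 lower. Rock2, a kinase that inhibits the phosphatase, had a log2 fold change of 0.14 (limma, adjusted p = 0.469), and Rnd3 one of -0.27 (limma, adjusted p = 0.469). The score of this list did not run with that of the members (r = -0.05). Of 26 genes tested for neuromuscular receptors and cyclic nucleotide signalling, which include the members Pde5a and Prkg1, 15 were higher and 11 lower. Ednrb, an endothelin receptor, had a log2 fold change of 0.17 (limma, adjusted p = 0.716), and Edn1, its ligand, -0.71 (limma, adjusted p = 0.529). No gene of either list passed limma's adjusted threshold.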

How the data were processed

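RNA-seq of colonic biopsies was available for 8 mice, 4 per genotype of the marrow donor, grouped by sample title. The authors used FastQC for read quality, STAR 2.7.8a on GRCm39 for alignment and quantification, and DESeq2 1.30.0. The values they deposited are a signal of normalized counts, that is, read counts divided by 1 size factor per library (100% of values were whole multiples of a step, within 0.01 reads). Length and composition of tissue are not corrected for by such values.

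Identifiers were named from GENCODE M39 (25776 of 26008). Values were taken as log2(value + 1), genes with a mean of at least 10 were kept (19127), and genotypes were compared with limma 3.58.1 (trend, Benjamini-Hochberg adjustment, R 4.3.3). Fold changes understate those of low genes. The fit was tested on simulated data. Each mouse was 1 replicate. Members and lists were chosen with earlier results of these data known. All 37 members are named, and of each pathway list the gene with the smallest p in each direction. Promoters came from RefSeq (GRCm38.p6), whose coordinates differ from those of GRCm39. Alternatives were other pseudocounts and filters, quantile normalization, a block, covariates and left-out libraries.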

Additional observations from a re-analysis of the deposited data

Results flagged for a closer look

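In 92 groups of 4 libraries (each member, the share, the score and the 7 ratios in each genotype), 4 had a library far from the other 3 by the tabulated limit of Dixon's test, in which the gap to the nearest library is divided by the range. Chance gives about 1 in 20 groups, or 4.6, so that these say little by themselves. Penk+/+ replicate 3, the library of its genotype richest in muscle transcripts, was high for Cnn1 (23415 normalized counts against 16644 to 17337, gap over range 0.898) and for Synpo2, a gene of a dense body protein (12716 against 9155 to 9418, 0.926). Penk-/- replicate 1 was low for Cacna1c (1248 against 1616 to 1663, 0.887). The ratio of Actg2 to Acta2 was low in Penk+/+ replicate 2 (0.65 against 0.76 to 0.77, 0.861).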

How the results depend on the processing

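Under 20 other fits of all genes (8 without 1 library each), no member passed an adjusted p of 0.05 in limma, with a lowest adjusted p of 0.0541. The sign of the log2 fold change changed in at least 1 fit for 21 of the 37 members and in none for 16, and 3 of the 7 ratios changed sign when a library was left out. Nrap was lower in Penk-/- throughout, with log2 fold changes from -0.64 to -0.52 and adjusted p from 0.0541 (without Penk-/- replicate 1) to 0.628. Over all genes, 1 was called with quantile normalization, with the replicate block, and with either the epithelial or the smooth muscle covariate, and 0 to 6 without 1 library, 6 being without Penk-/- replicate 1. Members at an unadjusted p under 0.05 numbered 2 with the replicate block (Nrap and Pdlim7, beside 15.4% of all genes), 3 with the smooth muscle covariate (11.7% of all genes), 2 without the 2 libraries highest in Pbsn (9.07%), and 1 to 2 without 1 library (7.23% to 11.6%). The labels do not say whether replicate numbers pair the mice. The deviations of same-numbered libraries correlated with r from -0.32 to 0.15, and none of the Penk-/- libraries was closest to its own number. These values cannot show whether same-numbered mice shared a day, cage or batch. Members with genotypes that did not overlap numbered 3 without the 2 libraries highest in Pbsn (15.3% of all genes tested did not overlap), and 1 to 3 without 1 library (7.83% to 12% of all genes), 3 (Nrap, Ppp1r14a and Vcl) being without Penk+/+ replicate 4 (11.2%). The median log2 fold change of the members ran from -0.05 (epithelial covariate) to 0.18 (without Penk-/- replicate 1). It was 0.07 with the replicate block, with voom on recovered reads, with the accessory gland score as a covariate, and over members with under 5% of exonic bases under antisense exons, these last 3 settings being chosen after seeing the data.

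Differences of log2 ratios without 1 library ran from -0.0467 to 0.0441 for Actg2 to Acta2 from -0.0338 to 0.159 for Prkg1 to Pde5a, from -0.03 to 0.30 for Des to Vcl and from 0.01 to 0.17 for Cnn1 to Cald1. That of Mylk to Ppp1r12b ran from -0.12 to -0.08, and its exact permutation p, not adjusted, from 0.0286 (without Penk-/- replicate 1, the smallest that 3 against 4 libraries allow) to 0.114. The planned count models were not run, because the step of 1 library lay too near 1 for a check of units to accept its recovered reads. The values of every library were still whole multiples of a step, and voom was run on the reads recovered from them.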

Other observations

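Among the other smooth muscle genes, Ilk, the gene of integrin-linked kinase, was listed at a mean of only 2.53 normalized counts and was not tested. Myh11 to Actg2 counts ranged from 2.14 to 3.42 between biopsies, more widely than Actg2 to Acta2, so that the filament genes did not scale by the same factor in every biopsy. Genes with the steepest lines on the mean of the other members (Lmod1, 1.64; Myocd, 1.54; Actg2, 1.48) included both abundant and scarce transcripts.

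The marker lists not detailed above had these summed normalized counts. Enteric glia had 13996 to 21195 in Penk-/- and 23034 to 29765 in Penk+/+, ranges that did not overlap. Most of the sum was Erbb3, which epithelium may express as well (11933 to 19396 against 21279 to 28138, log2 fold change -0.57, limma, adjusted p = 0.351). Of all genes tested, 5.63% had genotypes that did not overlap. Of the 8 glial genes, 3 were higher and 5 lower in Penk-/-. The glial score, which weighs each gene alike, overlapped, with -0.33 to 0.10 in Penk-/- and -0.03 to 0.11 in Penk+/+. Fibroblasts had 51370 to 75196 and 41309 to 70516, endothelium 6102 to 8487 and 5381 to 8243, and immune cells 6410 to 15195 and 7589 to 12704. Interstitial cells of Cajal had 29304 to 39061 in Penk-/- and 34225 to 40011 in Penk+/+, most of it Ano1 and Thbs4. Enteric neurons had 5515 to 7937 and 6058 to 7578. Pericytes and vascular smooth muscle had 10105 to 14884 and 9313 to 15226, with Rergl at 0 in at least 1 library. The prostate and seminal vesicle genes summed to 11726 to 229022 in Penk-/- and 10999.6 to 239812 in Penk+/+. The lowest sum of each genotype was nearly all Spink1, with 11545 in Penk-/- replicate 1 and 10895 in Penk+/+ replicate 3. Pbsn was at 0 in both of these libraries. Spink1 had 7372 to 15461 normalized counts over all libraries.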
